A study of Rattus norvegicus with 6 samples.

Results

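The genes of tissue-resident macrophages that sit along vessels were examined in pulmonary veins (PVs) after bilateral pulmonary vein banding (BPVB). The 10 genes, Mrc1, Cd163, Folr2, F13a1, C1qa, C1qb, C1qc, Csf1r, Maf and Adgre1, were taken by symbol from the 17833 genes of the deposited expression table, and all 10 were found. Bulk RNA-seq was available from 3 BPVB and 3 sham-operated wild-type Sprague-Dawley rats, with no transgene or drug in either group. By the labels, BPVB was performed on postnatal day 1, and the vein of the upper right lobe was taken on postnatal day 21. Sham rats had the same chest opening, vein exposure and suture passage without the banding, so that both groups carry the effects of thoracotomy. The comparison asks how expression in the piece of vein taken differed between banded and sham rats.

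Resident macrophages of vessel walls and the interstitium depend on the receptor encoded by Csf1r, which binds the growth factors CSF1 and IL-34. They are known for scavenging through Mrc1 (the mannose receptor) and Cd163 (the receptor for haptoglobin-haemoglobin complexes), for secreting the complement starter C1q, and for clearing dying cells and debris. Macrophages that derive from newly recruited monocytes carry many of the same genes, often with lower levels of the scavenger receptors, so that these genes mark a state more than a strict lineage. Each sample was a piece of whole vein, in which more cells of a type and more RNA per cell cannot be told apart.

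In the BPVB group, 6 of the 10 genes rose and 0 fell. Csf1r, Mrc1 and Adgre1 rose 1.58-, 1.57- and 1.80-fold (ratio of mean levels), and the 3 C1q chains rose 1.35- to 1.38-fold. Maf, Folr2, F13a1 and Cd163 did not pass the test. The levels are FPKM, fragment counts divided by gene length and by library size. The test was limma on log2(FPKM + 0.5) over the 15150 genes whose FPKM averaged at least 0.1, two-sided, with a Benjamini-Hochberg adjusted p under 0.05, and all differences below are BPVB minus sham on this scale. Over all tested genes, 17.2% rose and 14.3% fell, 31.5% in all (the falls outnumbered the rises under median-of-ratios and quantile scaling), and the median difference was 0.02, against a median of 0.42 over the 10 genes. No gene of the 10 also passed an absolute log2 difference of 1, which 3.27% of the tested genes did. In 7 of the 10 genes every BPVB rat lay above every sham rat, as in 25.2% of the tested genes, and in 0 genes every BPVB rat lay below, as in 20.5%.

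The deposited values allowed the fragments behind them to be recovered, which gave library totals of 25953104 to 29583436 in the BPVB group and 23324220 to 23703377 in the sham group. The 10 genes had 133 to 2060 fragments per library, the fewest for Adgre1 and the most for Csf1r. Their coefficient of variation within a group was 1.49% to 18.8% (median 7.53%), beside a median counting error of 3.69%, and 7 of the 20 values of a gene in a group were at or below their counting error. The vein wall was recognisable in all 6 libraries, with the smooth muscle gene Tagln at 1933 to 1964 FPKM in the BPVB libraries and 2009 to 2042 FPKM in the sham libraries. The atrial light chain gene Myl7, of the myocardial sleeve, was at 5217 to 5515 FPKM in the BPVB libraries and 8084 to 8217 FPKM in the sham libraries, a log2 difference of -0.59 (limma, adjusted p = 4.84e-07) that was -0.14 under quantile normalization (0.312). Genes of lung epithelium stood higher in the BPVB libraries. The 12 genes of that list summed to 702.1 to 751.0 FPKM there and to 139.7 to 145.3 FPKM in the sham libraries, 11 of 12 rose and 1 fell, and 0 were at 0 in all libraries. Sftpc, surfactant protein C, was at 389.9 ± 21.6 FPKM in the BPVB group and 36.59 ± 1.40 FPKM in the sham group. The gene that fell was Hopx, at 59.34 against 70.95 FPKM (log2 difference -0.26, limma, adjusted p = 0.00201). The part of lung tissue and of the vein's own makeup in the results below was not tested.

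Promoter sequences are shown for 2 genes that rose together, C1qa and C1qb, and 2 that did not pass the test, F13a1 and Cd163. They are the 250 bases before the gene start in RefSeq (GRCr8, 5′ to 3′ on the gene's strand). RefSeq promoters were matched for 9 of the 10 genes, all but C1qc. Capitals mark GAGGAA, a core of sites of the myeloid factor PU.1 (encoded by Spi1), and TGCTGA, a half-site of MAF factors, read on both strands (also TTCCTC and TCAGCA).

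C1qa, chr5:154419934-154420183, minus strand: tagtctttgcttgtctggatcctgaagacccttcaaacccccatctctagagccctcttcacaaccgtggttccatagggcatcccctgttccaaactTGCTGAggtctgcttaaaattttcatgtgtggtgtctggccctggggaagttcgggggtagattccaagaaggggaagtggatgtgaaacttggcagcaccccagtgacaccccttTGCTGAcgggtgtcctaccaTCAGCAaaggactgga

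C1qb, chr5:154407828-154408077, minus strand: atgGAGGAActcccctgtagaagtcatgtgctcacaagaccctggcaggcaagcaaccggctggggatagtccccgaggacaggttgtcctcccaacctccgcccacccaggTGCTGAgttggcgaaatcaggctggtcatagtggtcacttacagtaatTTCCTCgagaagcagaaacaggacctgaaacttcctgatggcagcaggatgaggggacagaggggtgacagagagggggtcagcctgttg

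F13a1, chr17:28020947-28021196, plus strand: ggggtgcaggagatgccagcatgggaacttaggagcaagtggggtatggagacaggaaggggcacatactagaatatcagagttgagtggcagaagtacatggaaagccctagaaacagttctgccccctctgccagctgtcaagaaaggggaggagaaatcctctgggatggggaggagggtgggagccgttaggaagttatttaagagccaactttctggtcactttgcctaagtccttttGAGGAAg

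Cd163, chr4:158770524-158770773, plus strand: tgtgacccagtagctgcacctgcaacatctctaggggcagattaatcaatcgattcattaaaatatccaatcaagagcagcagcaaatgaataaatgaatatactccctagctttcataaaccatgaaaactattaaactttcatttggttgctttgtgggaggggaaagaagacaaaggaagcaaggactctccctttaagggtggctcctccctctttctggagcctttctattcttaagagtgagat

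The C1qa promoter held 3 MAF half-sites and 0 PU.1 cores, and that of C1qb 1 half-site and 2 cores. F13a1 held 1 core and 0 half-sites, and Cd163 held neither. Of the 9 promoters, 5 held the PU.1 core, beside 23.3% of 33469 RefSeq promoters of the same length, and 4 held the MAF half-site, beside 15.1%. A match of 6 letters describes the window and is not a bound site.

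The receptor and the lineage factors come first. Csf1r (NCBI Gene 307403) was at 16.28, 16.22 and 16.82 FPKM in the BPVB rats and at 11.03, 10.58 and 9.53 FPKM in the sham rats. The 3 BPVB rats lay close together and well above all sham rats. Its level was 16.44 ± 0.33 against 10.38 ± 0.77 FPKM (SD, n = 3 each), a log2 difference of 0.64 (SE 0.066, limma, adjusted p = 1.16e-04). Its ligands did not pass the test. Csf1 was at 13.71 ± 0.76 against 11.87 ± 0.88 FPKM, with a log2 difference of 0.20 (limma, adjusted p = 0.0647), and Il34 was at 3.47 ± 0.24 against 3.14 ± 0.08 FPKM, with a difference of 0.12 (limma, adjusted p = 0.363). Csf1 passed on TPM (FPKM rescaled to the same sum in each library) and with limma-voom on the recovered fragments (adjusted p = 0.0408 and 0.0142).

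Maf (NCBI Gene 54267) encodes a transcription factor that holds macrophages in a differentiated, non-dividing state. It was at 2.69, 2.87 and 3.11 FPKM in the BPVB rats and at 2.34, 2.26 and 2.14 FPKM in the sham rats. All BPVB rats lay above all sham rats, yet the log2 difference of 0.30 (SE 0.103, 95% confidence interval 0.067 to 0.537) missed the threshold (limma, adjusted p = 0.0539). Maf passed it in 3 of 16 alternative analyses, with an adjusted p of 0.0465 among genes averaging at least 1 FPKM, 0.0389 on TPM and 3.09e-04 with limma-voom. Spi1, the myeloid master regulator, rose from 1.38 ± 0.12 to 2.69 ± 0.37 FPKM (0.76, limma, adjusted p = 0.00206).

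The list of CSF1R ligands and macrophage lineage factors held 20 tested genes, of which 11 rose and 0 fell, with a median log2 difference of 0.55 beside 0.02 for all tested genes. Csf2rb, the shared signalling chain of the GM-CSF receptor, rose from 6.47 ± 0.65 to 16.68 ± 2.0 FPKM (1.3, limma, adjusted p = 2.24e-05). The most abundant genes of the list by mean FPKM over all 6 libraries, Id3 and Zeb2, rose by 0.11 and 0.30 on the log2 scale (limma, adjusted p = 0.00755 and 8.16e-04).

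Adgre1 (NCBI Gene 316137) encodes an adhesion receptor long used as a surface marker of macrophages. It was at 4.05, 2.88 and 3.26 FPKM in the BPVB rats and at 1.72, 1.95 and 1.99 FPKM in the sham rats. The groups did not overlap, and the BPVB rats were the more spread out. Its log2 difference of 0.70 (SE 0.132, 95% confidence interval 0.399 to 0.999) passed the test (limma, adjusted p = 0.00378). Its interval overlapped those of Csf1r (0.490 to 0.791) and Mrc1 (0.462 to 0.775).

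**Figure D1:**
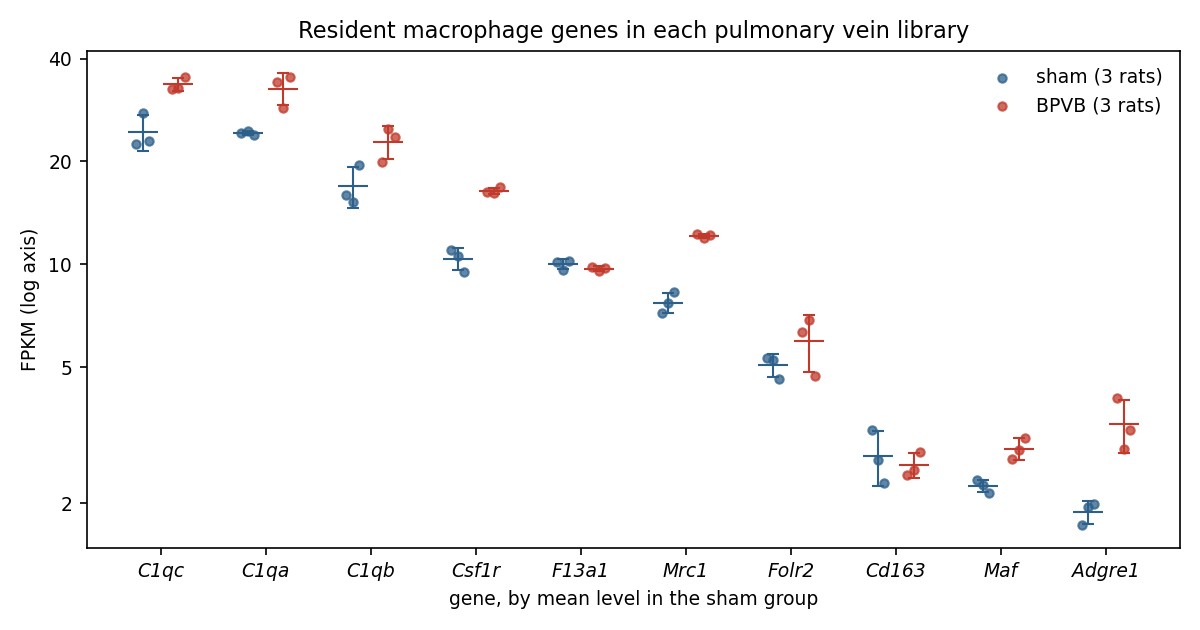
FPKM (log axis) of the 10 genes in each PV library, with 3 sham rats in blue and 3 BPVB rats in red, the horizontal line at the mean and bars of ± 1 SD. The groups stand apart for C1qc, C1qa, C1qb, Csf1r, Mrc1, Maf and Adgre1 and overlap for F13a1, Folr2 and Cd163.

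Of the endocytic receptors, Mrc1 rose, and Cd163 and Folr2 did not pass the test. Mrc1 (NCBI Gene 291327) was at 12.25, 11.91 and 12.21 FPKM in the BPVB rats and at 7.22, 7.69 and 8.29 FPKM in the sham rats. The 3 BPVB values differed by less than the sham values did, and the groups stood apart. The log2 difference was 0.62 (SE 0.069, limma, adjusted p = 1.79e-04), and it passed in all 16 alternatives (0.57 to 0.67).

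Cd163 (NCBI Gene 312701) was at 2.42, 2.50 and 2.83 FPKM in the BPVB rats and at 3.28, 2.67 and 2.29 FPKM in the sham rats. The sham rats alone spanned the whole BPVB range. The log2 difference of -0.07 (95% confidence interval -0.371 to 0.236) did not pass the test (limma, adjusted p = 0.741), and it was 0.05 without sham replicate 1. The upper end of the interval lies below the difference of Mrc1, 0.62.

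Folr2 (NCBI Gene 293154) encodes the folate receptor beta of resident macrophages. It was at 6.33, 6.87 and 4.71 FPKM in the BPVB rats and at 5.34, 5.25 and 4.61 FPKM in the sham rats. BPVB replicate 3 lay among the sham rats, and the other two BPVB rats lay above them. The log2 difference of 0.20 (SE 0.132, 95% confidence interval -0.097 to 0.505) did not pass the test (limma, adjusted p = 0.279). Without BPVB replicate 3 it was 0.35 (limma, adjusted p = 0.0383), so that this library decided the call, and without BPVB replicate 2 it was 0.10 (0.629).

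Haptoglobin and haem handling is the pathway that Cd163 serves, since the receptor takes up haemoglobin bound to haptoglobin and the haem is then broken down. Of its 14 tested genes, 7 rose and 0 fell, with a median log2 difference of 0.12. Hmox1, the haem-degrading enzyme, was at 19.71, 18.81 and 15.91 FPKM in the BPVB rats and at 4.08, 4.26 and 3.80 FPKM in the sham rats, a log2 difference of 2.03 (limma, adjusted p = 7.67e-07). Hmox1 thus rose while the uptake receptor gave an interval around 0. Hp, haptoglobin, rose from 4.27 ± 0.68 to 6.02 ± 0.65 FPKM (0.46, limma, adjusted p = 0.0215). The Hp call was lost without BPVB replicate 1, BPVB replicate 2, sham replicate 2 or sham replicate 3, with adjusted p of 0.0744, 0.0590, 0.0587 and 0.0680, and with limma-voom on the recovered fragments (0.0694). The iron-storage gene Ftl1 rose by 0.30 on the log2 scale (limma, adjusted p = 6.14e-04), whereas Fth1, the most abundant gene of the list at 2499 ± 69 against 2587 ± 20 FPKM, had a difference of -0.05 (limma, adjusted p = 0.137). Fth1 passed the test as a fall without BPVB replicate 2 (-0.07, limma, adjusted p = 0.0456), under quantile normalization (-0.08, 0.00505) and with limma-voom (-0.05, 9.02e-04).

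Among the secreted products, the C1q chains rose and F13a1 did not pass the test. C1q is built from 3 chains, encoded by C1qa, C1qb and C1qc, and starts the classical complement pathway on antibody complexes and dying cells. The genes lie side by side on rat chromosome 5 in the order C1qb, C1qc, C1qa, with no other protein-coding gene between them in RefSeq (GRCr8). C1qa (NCBI Gene 298566) was at 34.14, 28.7 and 35.29 FPKM in the BPVB rats and at 24.26, 24.61 and 23.84 FPKM in the sham rats. C1qc (NCBI Gene 362634) was at 32.67, 32.83 and 35.44 FPKM in the BPVB rats and at 22.48, 27.78 and 23.01 FPKM in the sham rats. In both genes all BPVB rats lay above all sham rats, with log2 differences of 0.42 (SE 0.073) and 0.46 (SE 0.079, limma, adjusted p = 0.00247 and 0.00226).

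C1qb (NCBI Gene 29687) was at 19.99, 24.83 and 23.62 FPKM in the BPVB rats and at 15.92, 15.24 and 19.59 FPKM in the sham rats. The groups were apart by a narrow gap, between BPVB replicate 1 and sham replicate 3. The log2 difference was 0.42 (SE 0.106, limma, adjusted p = 0.0152). The call did not hold without BPVB replicate 2, BPVB replicate 3, sham replicate 1 or sham replicate 2, where the difference was 0.36, 0.40, 0.39 and 0.35 (limma, adjusted p = 0.0532, 0.0534, 0.0557 and 0.0547).

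Proportions between the chains were compared next. Of the summed FPKM of the 3 chains, C1qa made up 36.7% ± 3.1 in the BPVB group and 37.0% ± 1.5 in the sham group, C1qb 25.6% ± 2.9 and 25.8% ± 3.5, and C1qc 37.7% ± 0.24 and 37.2% ± 3.4 (SD, n = 3 each). The values of both groups overlapped for each share (exact permutation test, two-sided, p = 1, 0.9 and 1, where 3 rats against 3 allow no p under 0.1), and single libraries ranged from 33.2% to 39.3% for C1qa, 22.5% to 29.5% for C1qb and 34.6% to 41.1% for C1qc. In the gene ontology terms of the deposited table, the chains share synapse pruning with 4 other genes of 7 in all, and the classical pathway of complement activation within a term of 29 genes.

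Of the 16 partners of C1q in the classical pathway, 11 rose and 3 fell, with a median log2 difference of 0.64. C2, a protease that C1 cleaves, rose from 1.46 ± 0.51 to 5.44 ± 0.51 FPKM (1.63, limma, adjusted p = 1.60e-04). The 3 that fell were Cd93, Calr and C1qbp, named for binding C1q or once proposed as its receptors. Cd93, also an endothelial surface protein, fell by 0.29 on the log2 scale (limma, adjusted p = 7.74e-05), and Calr, the chaperone calreticulin, fell by 0.17 (limma, adjusted p = 0.00142). C1qbp, a mitochondrial protein picked out here after its value was seen, fell by 0.22 (limma, adjusted p = 0.00307).

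F13a1 (NCBI Gene 60327) encodes the catalytic A chain of factor XIII, the transglutaminase that cross-links fibrin, made by resident macrophages and by platelet precursors. It was at 9.82, 9.53 and 9.78 FPKM in the BPVB rats and at 10.18, 9.66 and 10.22 FPKM in the sham rats. The values of both groups ran into each other. Its log2 difference of -0.04 had the narrowest interval of the 10 genes (95% confidence interval -0.180 to 0.095, limma, adjusted p = 0.638), so that a rise of the size of Csf1r, 0.64, lies outside it. The platelet list gave 0 rises and 1 fall among 9 tested genes, with a median log2 difference of -0.16. Its summed level was 219.8 to 235.0 FPKM in the BPVB libraries and 222.5 to 241.6 FPKM in the sham libraries. Most of this sum was Pf4, at 210.4 ± 7.8 against 209.4 ± 10.5 FPKM, which the list of other resident macrophage genes below holds too. The gene that fell was Itga2b, the platelet integrin chain, from 7.39 ± 0.41 to 4.90 ± 0.27 FPKM (-0.55, limma, adjusted p = 9.71e-04). The part of platelets in the F13a1 level was not tested.

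Of 9 tested substrates and relatives of factor XIII, 4 rose and 1 fell, with a median log2 difference of 0.35. Col1a1, a collagen chain and the most abundant gene of the list, rose from 961.4 ± 7.4 to 1230.0 ± 14.3 FPKM (0.35, limma, adjusted p = 2.71e-06). Tgm2, the tissue transglutaminase, rose by 0.11 on the log2 scale (limma, adjusted p = 0.00671). Fgg, the fibrinogen gamma chain, rose from 0.80 ± 0.39 to 1.95 ± 0.60 FPKM (0.93, limma, adjusted p = 0.0260). The Fgg call was lost without BPVB replicate 2 (0.91, adjusted p = 0.0682), BPVB replicate 3 (0.76, 0.0899) or sham replicate 1 (0.65, 0.0622), and over all genes with no filter (adjusted p = 0.0532). The fall was that of Itga2b.

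**Figure D2:**
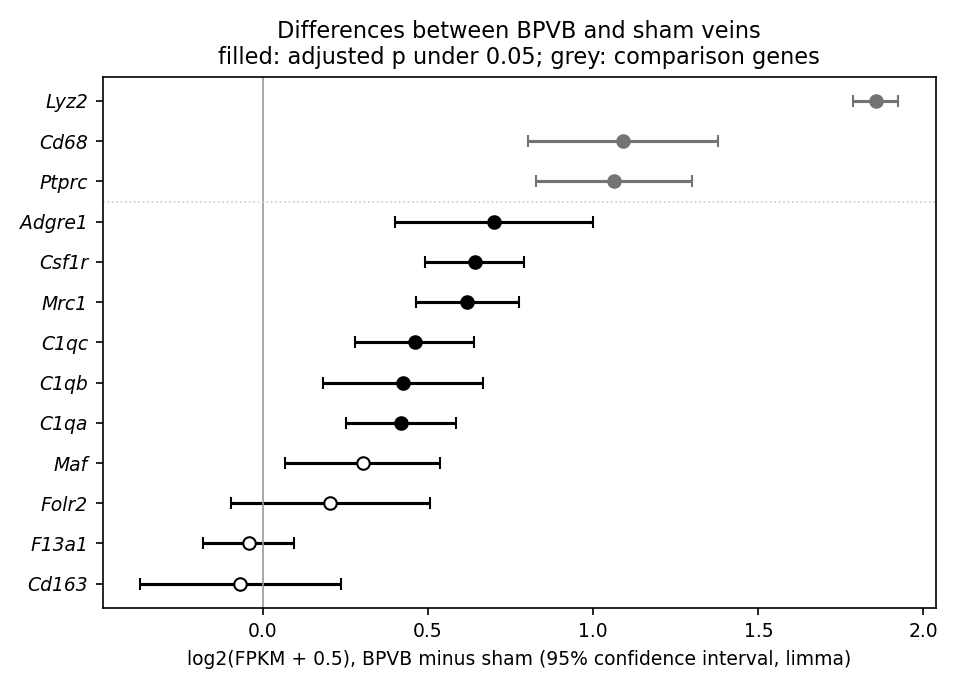
Log2 differences, BPVB minus sham, on log2(FPKM + 0.5) with 95% confidence intervals from limma for the 10 genes, in black, and for Ptprc, Cd68 and Lyz2, in grey. Filled points passed an adjusted p of 0.05, and the intervals of Folr2, F13a1 and Cd163 reach across 0.

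FPKM divides by the gene length that the annotation assigns, so the order of levels between genes holds only as far as those lengths do. Maf had 784 to 1420 fragments per library and Cd163 237 to 365, at FPKM values close to each other. In the sham group the order from high to low was C1qc, C1qa, C1qb, Csf1r, F13a1, Mrc1, Folr2, Cd163, Maf and Adgre1, from 24.42 FPKM down to 1.89 FPKM. The neighbours C1qc and C1qa, Csf1r and F13a1, and Cd163 and Maf overlapped in their sham values. In the BPVB group the order was C1qc, C1qa, C1qb, Csf1r, Mrc1, F13a1, Folr2, Adgre1, Maf and Cd163, from 33.65 FPKM down to 2.58 FPKM. There C1qc and C1qa, Adgre1 and Maf, and Maf and Cd163 overlapped. Mrc1 thus stood below F13a1 in every sham rat and above it in every BPVB rat, and Adgre1 went from last place to above Cd163 in mean level. The 10 genes together summed to 139.1 to 147.1 FPKM in the BPVB libraries and 103.8 to 107.7 FPKM in the sham libraries.

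Other genes of resident macrophages, a list of 16 tested genes with none of the 10 among them, split in both directions. The median log2 difference was 0.04, 5 genes rose and 2 fell, and the summed level was 1141 to 1146 FPKM in the BPVB libraries and 1100 to 1122 FPKM in the sham libraries. Lyve1, a hyaluronan receptor of resident perivascular macrophages and of lymphatic endothelium, was at 25.67, 28.32 and 27.25 FPKM in the BPVB rats and at 37.4, 39.45 and 36.34 FPKM in the sham rats. It fell by 0.47 on the log2 scale with no overlap (limma, adjusted p = 1.62e-04). Timd4, a phosphatidylserine receptor of long-lived resident macrophages, was at 5.01, 5.90 and 5.30 FPKM in the BPVB rats and at 7.28, 10.79 and 9.08 FPKM in the sham rats. It fell by 0.68 with no overlap (limma, adjusted p = 0.00431), and both falls passed in all 16 alternatives.

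Lyve1 is shared with lymphatic endothelium, whose other markers rose in part. Of 9 tested genes of that list, 5 rose and 1, Lyve1, fell, with a median log2 difference of 0.58, and the sum was 231.2 to 245.5 FPKM in the BPVB libraries and 124.2 to 125.4 FPKM in the sham libraries. Ccl21, a chemokine of lymphatic vessels, rose from 31.86 ± 2.27 to 138.5 ± 5.02 FPKM (2.10, limma, adjusted p = 2.82e-08). Nr2f2, a factor of venous and lymphatic endothelium, was at 32.38 against 34.82 FPKM with no overlap, a log2 difference of -0.10 (limma, adjusted p = 0.0929). Nr2f2 passed as a fall under median-of-ratios scaling and with limma-voom (adjusted p = 0.0417 and 0.0358).

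Among the other resident macrophage genes that rose was Cx3cr1, the fractalkine receptor, which monocytes carry too. It was at 2.18, 3.47 and 2.87 FPKM in the BPVB rats and at 0.73, 1.38 and 0.89 FPKM in the sham rats (log2 difference 1.16, limma, adjusted p = 0.00214). The other rises, named here after their values were seen, were Clec10a (0.37), Dab2 (0.32), Colec12 (0.24) and Siglec1 (0.43). Siglec1, at 0.38 against 0.15 FPKM, lost its call whichever library was left out (adjusted p = 0.0699 to 0.124) and under the replicate block and quantile normalization (0.0764 and 0.0738). The most abundant genes of the list, Selenop and Pf4, had log2 differences of 0.05 and 0.01 (limma, adjusted p = 0.140 and 0.915). Selenop passed the test as a rise under quantile normalization (0.13), on TPM (0.08) and with limma-voom (0.05), with adjusted p of 0.00452, 0.0244 and 0.0246.

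General leukocyte genes and genes of activated macrophages set the scale for the 10. Ptprc, the pan-leukocyte antigen CD45, was at 6.13, 5.59 and 5.52 FPKM in the BPVB rats and at 2.49, 2.78 and 2.21 FPKM in the sham rats (log2 difference 1.06, limma, adjusted p = 8.36e-05). Of the 12 pan-leukocyte genes, 8 rose and 0 fell, with a median of 0.69 and sums of 324.7 to 351.9 against 293.7 to 299.3 FPKM. Itgb2, an integrin chain of leukocytes, rose by 1.17 on the log2 scale (limma, adjusted p = 3.87e-05). The 2 most abundant genes of the list, Cd48 and Arhgdib, made up most of its sums, at 137.4 against 142.1 and 68.86 against 70.7 FPKM. Their differences were -0.05 and -0.04 (limma, adjusted p = 0.312 and 0.655). Cd68, a lysosomal glycoprotein of macrophages, had a log2 difference of 1.09, and Lyz2, lysozyme, of 1.86 (limma, adjusted p = 2.34e-04 and 1.44e-09). The 95% confidence interval of Ptprc began at 0.83, above the upper ends of the intervals of Csf1r, Mrc1 and the C1q chains and below that of Adgre1. The lysosomal and lipid-associated list gave 10 rises and 1 fall of 16 (median 0.26, sums of 2366 to 2391 against 1794 to 1811 FPKM). Spp1, osteopontin, rose there (2.62), and the fall was that of Lpl, lipoprotein lipase (-0.31, limma, adjusted p = 4.84e-07 and 3.17e-05).

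Ratios within each library gave the difference between genes directly, as log2 of (FPKM + 0.5) of one gene over that of the other. Relative to Csf1r, 5 of the 9 other genes were lower in all BPVB rats than in all sham rats and 0 were higher, whereas 82.5% of all other tested genes were lower and 2.36% higher in this way. Mrc1, Adgre1, C1qb and C1qc were thus among the minority of genes whose ratio to Csf1r overlapped between the groups. The ratio of Mrc1 to Csf1r was -0.40, -0.43 and -0.45 in the BPVB rats and -0.58, -0.44 and -0.19 in the sham rats, a difference of -0.02 (exact permutation test, two-sided, p = 0.9). That of Adgre1 differed by 0.06, that of C1qc by -0.18 and that of C1qb by -0.22 (exact permutation test, p = 0.7, 0.3 and 0.4).

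The ratio of Cd163 to Csf1r was -2.53, -2.48 and -2.38 in the BPVB rats and -1.61, -1.81 and -1.85 in the sham rats. The BPVB rats lay below all sham rats, by 0.71 in the mean (-2.46 ± 0.07 against -1.75 ± 0.13, SD, n = 3 each). The ratio of F13a1 to Csf1r was -0.70, -0.74 and -0.75 against -0.11, -0.13 and 0.10, again with no overlap and a difference of -0.68. Folr2, Maf and C1qa differed by -0.44, -0.34 and -0.22. A ratio to Csf1r lower in all BPVB rats was shared by 82.5% of all other tested genes, so that it is no feature of these genes. Each of these 5 had the smallest p that 3 rats against 3 allow (exact permutation test, two-sided, p = 0.1, and 0.18 after Benjamini-Hochberg adjustment over 9 ratios), so that none could pass 0.05. Relative to Ptprc, all 10 genes were lower in all BPVB rats, by 0.37 for Adgre1 up to 1.13 for Cd163 (exact permutation test, p = 0.1 each, 0.1 adjusted over 10 ratios). This holds for 93.4% of all other tested genes, and 0.812% were higher, so that it is no feature of the 10.

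**Figure D3:**
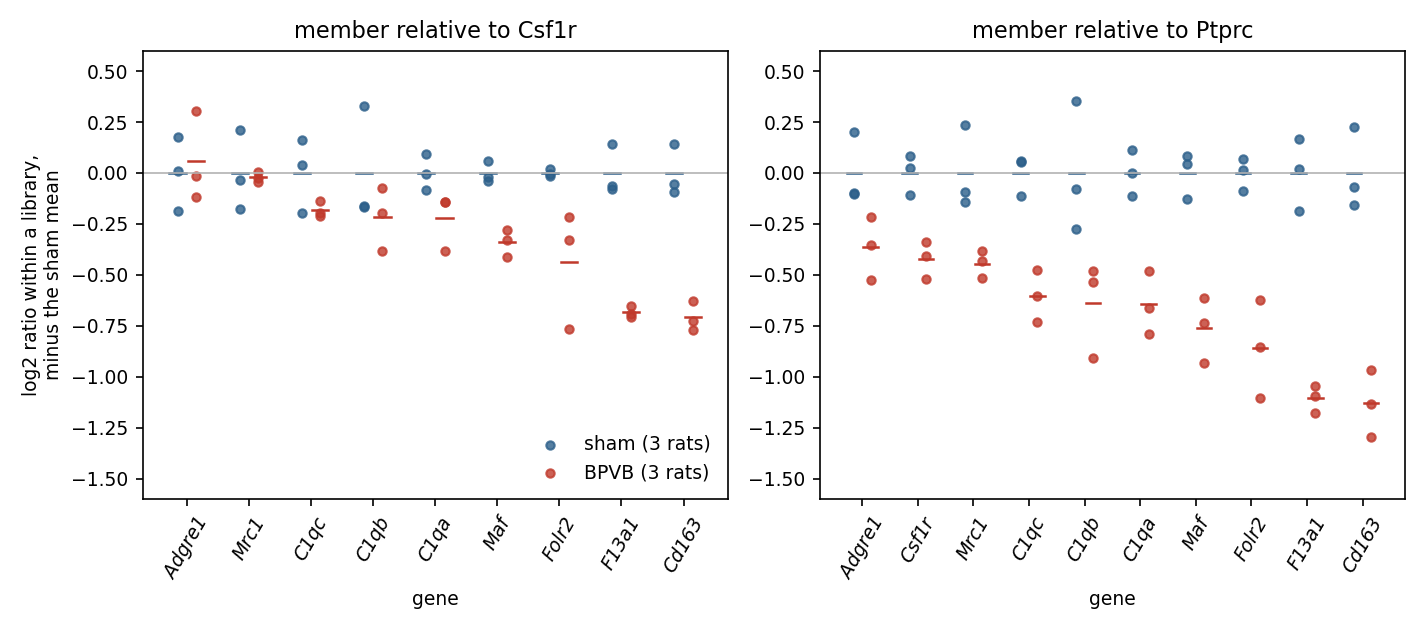
Log2 ratio of each gene to Csf1r (left) and to Ptprc (right) within a library, shown minus the mean of the 3 sham rats, so that the sham mean is 0 by construction, with sham rats in blue, BPVB rats in red and a line at each mean. Against Csf1r the BPVB rats overlap the sham rats for Adgre1, Mrc1, C1qc and C1qb and lie below them for C1qa, Maf, Folr2, F13a1 and Cd163, and against Ptprc all 10 lie below.

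Lists of other blood and lung cells were measured alongside. Of 15 recruited monocyte genes, 7 rose and 5 fell (median 0.17, sums of 305.4 to 319.1 FPKM in BPVB and 322.6 to 338.6 FPKM in sham libraries). Ccr2, the receptor that brings monocytes into tissue, rose from 0.83 ± 0.05 to 2.38 ± 0.06 FPKM (1.11, limma, adjusted p = 9.62e-05), and S100a8, shared with neutrophils, fell from 11.98 ± 1.60 to 4.32 ± 2.06 FPKM (-1.45, limma, adjusted p = 0.00215). Fcnb, a ficolin of monocytes, rose by 1.39 on the log2 scale (limma, adjusted p = 0.00239). The most abundant genes of the list, Plac8 and Ace, had differences of -0.03 and -0.12 (limma, adjusted p = 0.768 and 0.0845). Ace passed as a fall without sham replicate 3 (-0.16, adjusted p = 0.0321), under median-of-ratios scaling (0.0391) and with limma-voom (0.00357). Of 11 alveolar macrophage genes, 7 rose and 1 fell (median 0.45, sums of 1346 to 1391 against 1346 to 1366 FPKM), with rises of Plet1 (1.98) and Ctsk (0.45) and a fall of Bhlhe41 (-1.41). Fabp4, the most abundant gene of that list, made up most of its sums, at 1297 ± 23 against 1299 ± 6 FPKM. The difference of Fabp4 was 0.00 (limma, adjusted p = 0.942), and it passed as a rise under quantile normalization (0.13, 0.00110). The defining alveolar gene Marco was not analysed here. Dendritic cell genes gave 6 rises and 0 falls of 11 (median 0.41, sums of 1730 to 1784 against 1300 to 1361 FPKM), among them Cst3 and Cd74 (0.41 each) and Ccr7 (0.95). The Ccr7 call was lost without BPVB replicate 1 or 3 or sham replicate 1 or 2 (adjusted p = 0.132, 0.104, 0.131 and 0.133), with no filter (0.0740) and under quantile normalization (0.0662). Mast cell genes gave 5 rises and 1 fall of 10 (median 0.86, sums of 40.97 to 44.41 against 33.34 to 34.88 FPKM), with a rise of the protease gene Mcpt2 (1.95), a fall of Gata2 (-0.36) and a difference of 0.04 in Kit, which did not pass. Neutrophil genes gave 0 rises and 5 falls of 8 (median -1.23, sums of 7.13 to 10.84 against 22.90 to 26.15 FPKM), with falls of S100a9 (-1.20) and Ngp (-1.74). T and NK cell genes gave 1 rise and 0 falls of 13 (0.12, 7.25 to 10.48 against 6.29 to 7.30 FPKM), and Lck and Cd8a had differences of 0.03 and 0.01. The rise was that of Prf1, perforin (0.67, limma, adjusted p = 0.0225), whose call was lost without BPVB replicate 2, sham replicate 2 or sham replicate 3 (0.0740, 0.0692 and 0.0757) and with limma-voom (0.0636). B cell genes gave 0 and 0 of 7 (0.07, 5.19 to 5.62 against 4.57 to 5.56 FPKM), with Cd79a and Blk at differences of 0.07 and 0.01. Vein wall and myocardial genes gave 3 rises and 10 falls of 14 (median -0.15, sums of 13530 to 13920 against 17160 to 17300 FPKM), with the fall of Myl7 given above and a rise of Pdgfrb (0.62). Of the listed genes, 17 of 18 were measured in the other resident macrophage list, 12 of 14 in the alveolar list and 9 of 10 in the platelet list, and all in the other lists. No measured gene of a list was at 0 in all libraries, and the part of these cells in the levels of the 10 genes was not tested.

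**Figure D4:**
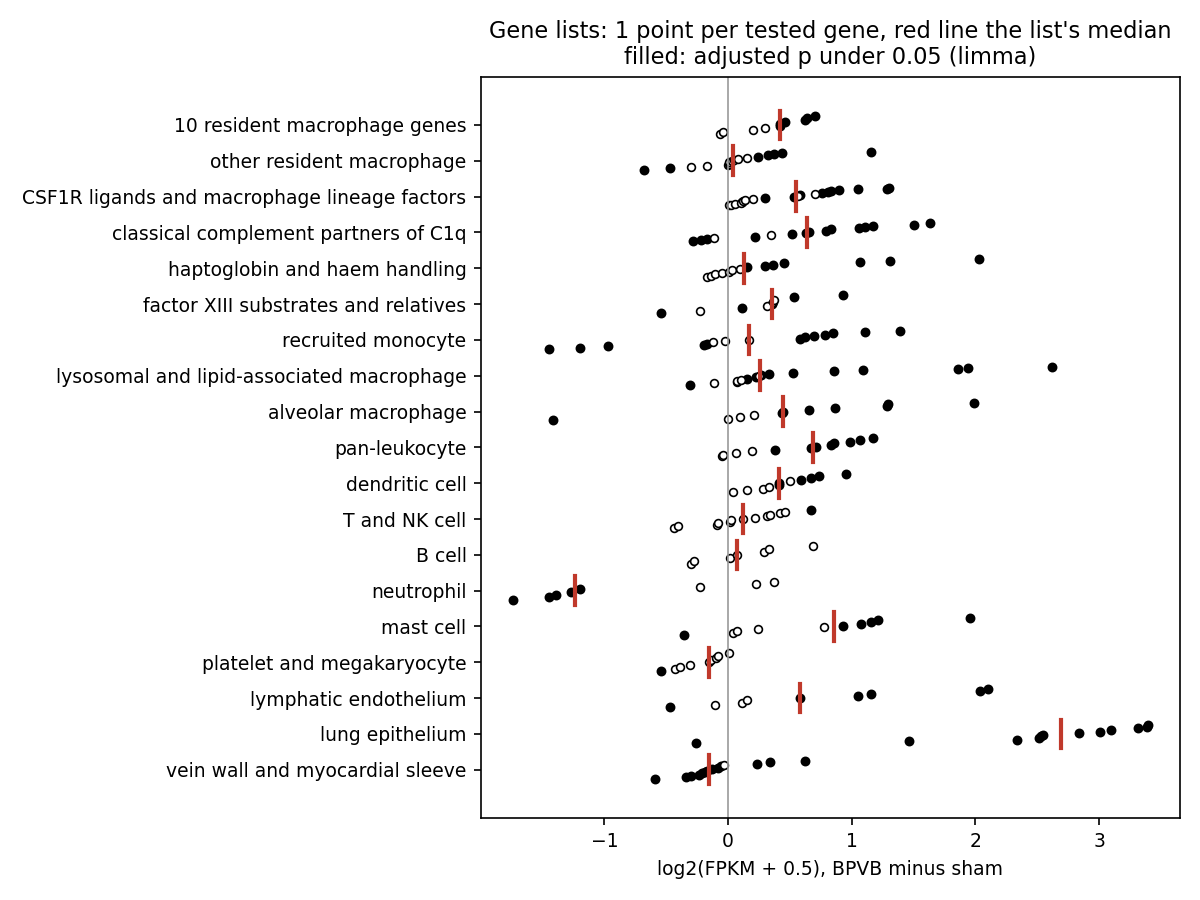
Log2 differences, BPVB minus sham, of each tested gene (1 point) in the 10 resident macrophage genes and in 18 other lists, with filled points at a limma adjusted p under 0.05 and a red line at each list's median. The 10 genes have a median of 0.42, between those of the other resident macrophage genes (0.04) and of the pan-leukocyte genes (0.69).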

How the data were processed

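The libraries of 6 rat PVs, 3 BPVB and 3 sham, were grouped by the sample labels. All columns with values of a sample were used (0 left out). After trimming (fastp), mapping (HISAT) and counting, the authors deposited FPKM, 1 value for each gene in each rat. The paper names HTSeq-count and the VAHTS V6 kit, whereas the submitters' processing notes list HISAT2 2.0.5, featureCounts 1.5.0-p3, StringTie 1.3.3b and DESeq2 1.20.0, and the labels name an NEBNext kit. The genome build, annotation and strand setting are not given in the sources used here. Counts scaled by length and library total compare levels between genes only as far as the annotated lengths hold, and do not remove shifts in tissue makeup.

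The 10 genes and all lists were chosen with earlier results of these data known. Fragments were recovered as the smallest whole numbers that give the ratios of FPKM between libraries (relative tolerance 3e-13). Such numbers were found for 100.0% of 17833 genes, and they fall short where the true counts of a gene share a divisor. The fragments may include PCR copies, so counting errors cover sampling only. limma 3.58.1 in R 4.3.3 (lmFit, eBayes with trend) was run without covariates on log2(FPKM + 0.5), which lowers the fold change of weakly expressed genes, over genes whose FPKM averaged at least 0.1, and the procedure was tested on simulated data. Ratios and shares used exact permutation tests over the 6 libraries in Python 3.11.15 with scipy 1.17.1. The 16 alternatives were pseudocounts of 1 and 0.1, no filter, a filter at a mean of 1 FPKM, median-of-ratios scaling, quantile normalization, TPM, the replicate block, robust eBayes, limma-voom on recovered fragments, and leaving out each library. The genes named were the 10, the 2 most abundant genes and the largest rise and fall (on log2(FPKM + 0.5), among calls) of each other list, and Ptprc, Lyz2, Cd68, Csf1, Il34, Spi1, Hp, Hmox1, Lyve1, Ccr2, Marco and Sftpc, unless said otherwise. A further gene of this rule is not reported here.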

Additional observations from a re-analysis of the deposited data

How the results depend on the processing

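The counts of the 10 genes that rose and fell stayed within 1.5 times of 6 and 0 under all 16 alternatives, with 5 to 6 rises and 0 falls when single libraries were left out, and 7 rises among genes averaging at least 1 FPKM, on TPM and with limma-voom, where Maf joined. Over all genes, leaving out a library gave 2163 to 2232 rises and 1748 to 1901 falls, and fewer samples entered those fits. Of 160 differences of the 10 genes under alternatives, 151 kept direction and side of the threshold, 4 (C1qb) lost the call, 4 (Maf and Folr2) gained it and 1 changed sign, Cd163 at 0.048 without sham replicate 1, within a range of -0.172 to 0.048 over the left-out libraries. All 152 values of the ratio differences under alternatives moved by less than the spread between rats. The difference in the ratio of Adgre1 to Csf1r changed sign to -0.017 with a pseudocount of 1. Over the left-out libraries the difference in the ratio to Csf1r lay on both sides of 0, from -0.111 to 0.084 for Mrc1 and from -0.066 to 0.148 for Adgre1. The cause was not tested. The deviations of BPVB and sham samples with the same replicate number had correlations of 0.031, 0.0248 and 0.0191. Those of BPVB and sham samples with different numbers had correlations of -0.0241 to -0.00149. Whether the numbers pair rats was not tested. With the replicate block, 6 of the 10 genes rose and 0 fell, and 2466 genes rose and 2073 fell. The median of all genes was 0.0245, and 0.002, -0.0126 and 0.0515 with median-of-ratios, quantile and TPM scaling, which gave 2362, 2354 and 3000 rises beside 2454, 2434 and 1888 falls. Of 576 list counts, 25 moved by more than 1.5 times. The other resident macrophage list had 8 rises in place of 5 on TPM and with limma-voom. Among genes averaging at least 1 FPKM, fewer genes were tested, and the alveolar list had 4 rises in place of 7, the dendritic 3 in place of 6, and the neutrophil 3 falls in place of 5. The recruited monocyte list had 3 falls in place of 5 without BPVB replicate 3 or sham replicate 1, and the platelet list 3 in place of 1 without BPVB replicate 3. The remaining moves were between 0 and 3 genes. At 133 to 365 fragments per library, Adgre1, Cd163 and Folr2 were the least precisely counted.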
